A study of Mus musculus with 8 samples.

Results

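Goblet cell mucus and differentiation genes were followed in the lower crypts of the mouse jejunum after a DNA-damaging drug, in mice that had been fasted or fed beforehand. The set comprised 10 genes, Muc2, Tff3, Agr2, Fcgbp, Zg16, Clca3, Spink4, Spdef, Atoh1 and Foxa3, found through the gene name that the array files give for each probe and represented by 11 probes among 39429. All 10 genes were well above background on each of the 8 arrays and passed the filter that left 19450 genes for testing. Each array held RNA from 1 mouse that was heterozygous for Lgr5EGFP-IRES-CreERT2/+, a reporter allele at the Lgr5 locus of crypt base stem cells, and was 4 to 6 weeks old. All 8 mice, the fed ones included, were given etoposide, a drug that traps topoisomerase II on broken DNA, at 80 mg/kg by tail vein, and jejunum was taken 3 h later. The 4 fasted mice had gone without food for 24 h before the injection, the 4 fed mice had not, and each group was labelled as 2 males (replicates 1 and 2) and 2 females (replicates 3 and 4). Moistened food was offered to both groups once injected, so fasting cannot be told apart from refeeding, and mice without etoposide were not part of the design. Crypt bases were cut from fixed sections by laser capture microdissection, which takes every cell type in the cut area.

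Goblet cells are secretory cells of the intestinal epithelium that store and release mucus. Their granules hold the gel-forming mucin Muc2 together with smaller proteins that cross-link, process or stabilise the gel, and Muc2 has to be folded, disulfide-bonded and heavily glycosylated before release. Cells enter the secretory path when Notch signalling is low and Atoh1 is active, and factors such as Spdef and Foxa3 then act in goblet cell maturation. Goblet cells share this path with Paneth cells, and Atoh1, Spdef, Agr2 and Spink4 are known in both.

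The sequences that the signals rest on are shown first, followed by those in front of Muc2, of Agr2, which folds it, and of its mucus partner Fcgbp. The probes for Muc2, Zg16 and Fcgbp are printed because Muc2 is the reference for the whole set, Zg16 had the largest difference between the groups among the 10 genes, and Fcgbp was read by probes that gave opposite signs. They are 60 bases long, as given in the array files, and lie at chr7:148940000-148940059 on the plus strand (Muc2), chr7:134193837-134193896 on the minus strand (Zg16) and chr7:28905517-28905576 on the plus strand (the brighter Fcgbp probe), all in mm9. Their place in exons or UTRs was not analysed here.
Muc2 probe: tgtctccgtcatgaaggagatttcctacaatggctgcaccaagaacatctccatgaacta
Zg16 probe: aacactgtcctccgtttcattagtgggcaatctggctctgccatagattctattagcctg
Fcgbp probe: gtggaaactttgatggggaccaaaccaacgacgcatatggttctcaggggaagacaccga

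The 250 bases in front of the RefSeq start of Muc2, Agr2 and Fcgbp follow in the gene's direction, with matches to 6 searched motifs in capitals. The motifs were CAGCTG (an E-box of the ATOH1 kind), TGTTTNC (forkhead factors such as Foxa3), CCGGAN (ETS factors such as Spdef), GATAA (GATA factors), TTTATNG (CDX factors) and TATAAN (the TATA box), each sought on both strands. RefSeq on GRCm38.p6 gave such a stretch for 6 of the 10 genes, namely these 3 and Spdef, Atoh1 and Foxa3. The stretches lie at chr7:141690090-141690339 on the plus strand (Muc2), chr12:35992675-35992924 on the plus strand (Agr2) and chr7:28070986-28071235 on the plus strand (Fcgbp).
Muc2 promoter: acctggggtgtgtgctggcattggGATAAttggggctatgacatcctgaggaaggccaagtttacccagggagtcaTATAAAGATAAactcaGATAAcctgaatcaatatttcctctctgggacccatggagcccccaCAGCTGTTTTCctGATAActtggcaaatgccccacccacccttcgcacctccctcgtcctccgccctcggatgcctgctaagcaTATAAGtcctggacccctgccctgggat
Agr2 promoter: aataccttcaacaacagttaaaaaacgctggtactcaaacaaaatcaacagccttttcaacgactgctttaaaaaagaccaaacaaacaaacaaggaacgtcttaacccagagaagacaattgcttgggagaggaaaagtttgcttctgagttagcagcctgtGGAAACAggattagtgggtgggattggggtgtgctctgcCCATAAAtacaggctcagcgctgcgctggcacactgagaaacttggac
Fcgbp promoter: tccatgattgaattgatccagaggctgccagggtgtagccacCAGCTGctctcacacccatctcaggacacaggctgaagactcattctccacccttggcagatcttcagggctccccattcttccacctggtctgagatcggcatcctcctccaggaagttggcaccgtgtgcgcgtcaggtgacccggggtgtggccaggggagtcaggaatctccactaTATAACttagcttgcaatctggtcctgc

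CAGCTG was found in front of Muc2, from -112 to -107 counted from the start, and in front of Fcgbp, from -208 to -203, while 13.0% of 32851 RefSeq promoters of the same length hold it. In Muc2 it overlaps a TGTTTNC match from -108 to -102. Muc2 also held GATAA 4 times, a motif found in 22.6% of the promoters, and the Muc2 and Fcgbp stretches both held TATAAN from -28 to -23, a motif found in 22.7%. The Agr2 stretch held TGTTTNC on the minus strand from -87 to -81 (17.8% of promoters) and TTTATNG on the minus strand from -48 to -42 (9.8%). CCGGAN, held by 28.7% of the promoters, was in none of the 6. The Spdef stretch held only TATAAN, the Foxa3 stretch TATAAN and an overlapping TTTATNG, and the Atoh1 stretch none of the motifs. A match describes letters in this window and does not show a bound site.

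All levels below are on the log2 scale relative to the 75th percentile of the same array, and differences are fasted minus fed. Probes differ in brightness for reasons other than abundance, so levels were compared between arrays and not between genes. The share of probes well above background ran from 53.2% to 65.62% between arrays, and the number of arrays limits the precision. Fasted replicate 3 was the array least like the rest (correlation over the probes kept for testing 0.823 to 0.922), and it alone was scanned on a later day. Transcripts of fed replicate 4, labelled female, went against that label: its Xist level of -6.01 was not well above background, against 2.43 to 3.33 on the other arrays labelled female, and its Eif2s3y level was -1.39, against -5.61 to -5.07 on those. Each gene's difference without these 2 arrays is given beside its result. The Lgr5 transcript stayed under the background limit on all 8 arrays.

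The comparison of fasted with fed crypts asked whether goblet cell transcripts differed with feeding state before etoposide. None of the 10 genes passed the limma test across all genes (Benjamini-Hochberg adjusted p under 0.05), for which 0% of the 19450 genes were called and the smallest adjusted p was 0.787. By sign, 8 of the 10 were lower in fasted crypts and 2, Zg16 and Clca3, were higher, against 55.5% of all genes lower. The median log2 difference of the set was -0.19, against -0.06 for all genes. None of the 10 had an unadjusted p under 0.05, which 5.96% of all genes had, and none had groups that did not overlap, which 4.98% of all genes had (1.98% with the fasted group below). The first of these counts depends on the setting. Over 24 alternative settings, an unadjusted limma p under 0.05 was found for Zg16 in 11, for Spink4 in 2 and for Atoh1 in 1. Without both fasted replicate 3 and fed replicate 4, 3 of the 10 genes had one. Overlap was counted with all arrays kept. Without fed replicate 4 the groups of Spink4 do not overlap (fasted up to 6.02, fed from 6.05). The share of all genes without overlap was not counted for that case. In bulk RNA of captured crypts, fewer goblet cells and less RNA per goblet cell cannot be told apart.

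The set's median kept a negative sign when any single array was left out, between -0.28 and -0.10. It was -0.10 without fasted replicate 2, -0.11 without fed replicate 1, and -0.37 without both fasted replicate 3 and fed replicate 4. It rested on the scaling as well: with quantile normalization 5 of the 10 genes were lower and the median was -0.01, and in the authors' deposited log2 values 6 were lower and the median was -0.07.

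**Figure D1:**
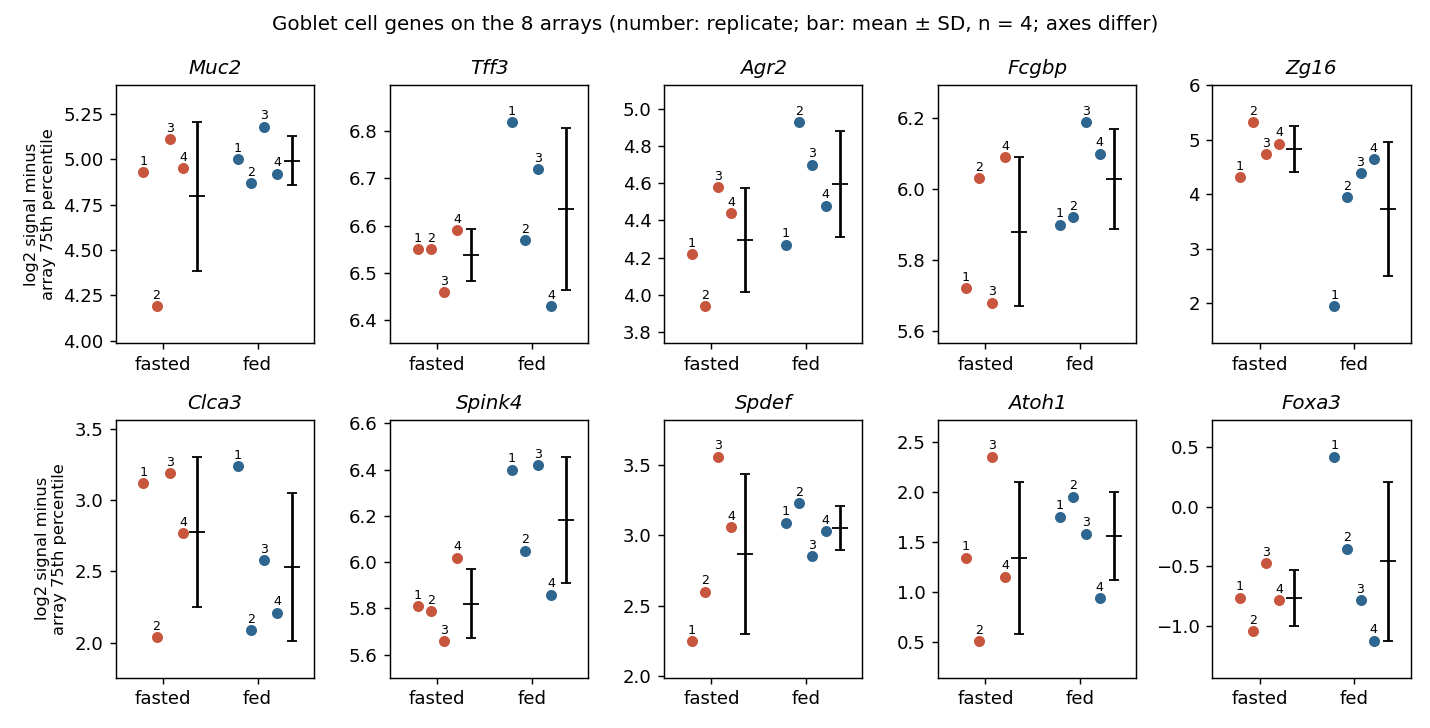
Level of each of the 10 goblet cell genes on each array (y axis, log2 relative to the array's 75th percentile), with the replicate number at each point and a bar for the mean ± SD (n = 4) of each group. The fasted and fed points overlap for all 10 genes, and the widest spread within a group is that of Zg16 among the fed arrays, from 1.95 to 4.64.

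Among the secreted mucus proteins, Muc2, the gel-forming mucin that builds the intestinal mucus layer, stood at 4.93, 4.19, 5.11 and 4.95 in fasted replicates 1 to 4 and at 5.0, 4.87, 5.18 and 4.92 in fed replicates 1 to 4. Fasted replicate 2 was the lowest array, and the other 3 fasted arrays lay within the fed range. The means were 4.79 ± 0.41 (SD, n = 4) and 4.99 ± 0.14 (SD, n = 4), a log2 difference of -0.20 (SE 0.20, limma adjusted p = 0.812, 95% interval -0.66 to 0.26). The difference was -0.99 on the slide that held fasted replicate 2, and -0.07 and 0.04 on the other slides with both groups. Without fasted replicate 2 it was -0.01, without fasted replicate 1 it was -0.31, and without both fasted replicate 3 and fed replicate 4 it was -0.33.

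Fcgbp, a large mucus protein with von Willebrand domains that associates with Muc2, was at 5.72, 6.03, 5.68 and 6.09 in fasted and 5.90, 5.92, 6.19 and 6.10 in fed crypts by its brighter probe. Its log2 difference was -0.15 (SE 0.15, limma adjusted p = 0.815), and it was -0.04 without fasted replicate 3, -0.23 without fasted replicate 2 and -0.06 without both fasted replicate 3 and fed replicate 4. The dimmer probe, at chr7:28873024-28873083 in mm9, gave 0.96, -0.22, 1.31 and 0.37 in fasted and -1.20, 0.31, -0.59 and -0.11 in fed crypts. That probe stood at 0.60 ± 0.67 against -0.40 ± 0.65 (SD, n = 4 each), a log2 difference of 1.01 (SE 0.42) with an unadjusted limma p of 0.0437 and an adjusted p of 0.764 over 24413 probes. The probes for Fcgbp thus disagreed in sign, and the mean of both gave 0.43. Which transcripts the dimmer probe reads was not analysed here.

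Tff3, a trefoil peptide secreted with the mucin that aids epithelial repair, had the smallest spread among fasted mice of the 10 genes, an SD of 0.05. Its levels were 6.55, 6.55, 6.46 and 6.59 in fasted and 6.82, 6.57, 6.72 and 6.43 in fed crypts, so the fed arrays lay on both sides of the fasted ones. The log2 difference was -0.10 (SE 0.14, limma adjusted p = 0.859, 95% interval -0.41 to 0.21), and its sign turned to 0.20 with quantile normalization and 0.21 in the authors' deposited log2 values. It was -0.04 without fed replicate 1, -0.16 without fed replicate 4 and -0.14 without both fasted replicate 3 and fed replicate 4.

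Spink4, a Kazal-type peptide of goblet and Paneth cells, had the second smallest p of the set. It stood at 5.81, 5.79, 5.66 and 6.02 in fasted and at 6.40, 6.05, 6.42 and 5.86 in fed crypts. All fed arrays except replicate 4 were above all fasted arrays. The means were 5.82 ± 0.15 and 6.18 ± 0.27 (SD, n = 4 each), a log2 difference of -0.36 (SE 0.18, limma unadjusted p = 0.0737, adjusted p = 0.787, 95% interval -0.77 to 0.04). The difference was -0.59, -0.63 and 0.16 within the 3 slides, and -0.04 with quantile normalization. It was -0.27 without fed replicate 3, -0.49 without fed replicate 4 and -0.42 without both fasted replicate 3 and fed replicate 4.

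Zg16, a small lectin of the mucus that binds Gram-positive bacteria, had the largest difference of the set and was higher in fasted crypts. Its levels were 4.32, 5.33, 4.73 and 4.93 in fasted and 1.95, 3.95, 4.39 and 4.64 in fed crypts. Fed replicate 1 was far below the other fed arrays, and fed replicates 3 and 4 overlapped with the fasted range. The means were 4.83 ± 0.42 and 3.73 ± 1.22 (SD, n = 4 each), a 2.14-fold difference (log2 1.1, SE 0.49, limma unadjusted p = 0.0566, adjusted p = 0.787, 95% interval -0.04 to 2.23). Without fed replicate 1 the log2 difference was 0.54, without fasted replicate 2 it was 0.74, and without both fasted replicate 3 and fed replicate 4 it was 1.43. Within the 3 slides it was 2.37, 0.94 and 0.29, in each case higher in the fasted array. Over 24 alternative settings it stayed between 0.54 and 1.43, and its limma adjusted p did not go below 0.224.

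Clca3 in the array files is the gene that RefSeq names Clca1, known as gob-5, a secreted protease that processes mucus. Its probe lies at chr3:144667558-144667617 on the minus strand in mm9. The 2 probes that the files name Clca1 read another gene, Clca3a1 in RefSeq, and were left out. Clca3 was at 3.12, 2.04, 3.19 and 2.77 in fasted and at 3.24, 2.09, 2.58 and 2.21 in fed crypts, so both groups covered nearly the same range. The log2 difference was 0.25 (SE 0.35, limma adjusted p = 0.857, 95% interval -0.54 to 1.04). Without fed replicate 1 it was 0.55 and without fasted replicate 2 it was 0.53. It was 0.10 without fasted replicate 1 or fasted replicate 3, 0.11 without fed replicate 4, 0.09 without fed replicate 2 and 0.01 without both fasted replicate 3 and fed replicate 4.

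Agr2, the endoplasmic reticulum disulfide isomerase needed to make Muc2, stood at 4.22, 3.94, 4.58 and 4.44 in fasted and at 4.27, 4.93, 4.70 and 4.48 in fed crypts. The lowest array was again fasted replicate 2, and fed replicates 1 and 4 lay among the fasted arrays. The means were 4.29 ± 0.28 and 4.60 ± 0.28 (SD, n = 4 each), a log2 difference of -0.30 (SE 0.20, limma adjusted p = 0.787, 95% interval -0.76 to 0.16). Within the slides it was -0.06, -0.76 and -0.04, without fed replicate 2 it was -0.13, and without both fasted replicate 3 and fed replicate 4 it was -0.44.

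Of the 3 transcription factors, Atoh1, the basic helix-loop-helix factor that commits cells to the secretory lineage, was at 1.34, 0.51, 2.35 and 1.15 in fasted and 1.75, 1.95, 1.58 and 0.94 in fed crypts. Both its highest and its lowest level were in fasted mice. Its log2 difference was -0.22 (SE 0.41, limma adjusted p = 0.894, 95% interval -1.15 to 0.71), and 0.09 without fasted replicate 2. It was -0.60 without fasted replicate 3, -0.49 without fed replicate 4, -0.04 without fed replicate 2, -0.12 without fasted replicate 4 or fed replicate 1, and -0.76 without both fasted replicate 3 and fed replicate 4.

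Spdef, an ETS factor of goblet and Paneth cell maturation, was at 2.25, 2.60, 3.56 and 3.06 in fasted and 3.09, 3.23, 2.85 and 3.03 in fed crypts. Fasted replicates 1 and 2 were below every fed array, and fasted replicate 3 was the highest of all. Its log2 difference was -0.18 (SE 0.27, limma adjusted p = 0.864, 95% interval -0.79 to 0.43). It was 0 without fasted replicate 1, -0.05 without fed replicate 2, -0.10 without fed replicate 1, -0.33 without fed replicate 3, -0.39 without fasted replicate 3 and -0.42 without both fasted replicate 3 and fed replicate 4.

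Foxa3, a forkhead factor of goblet cells, was at -0.76, -1.04, -0.47 and -0.78 in fasted and 0.42, -0.35, -0.78 and -1.12 in fed crypts. Fed replicates 1 and 2 were above every fasted array, and fed replicate 4 was the lowest of all. The log2 difference was -0.30 (SE 0.34, limma adjusted p = 0.827, 95% interval -1.08 to 0.48), and -0.02 without fed replicate 1. It was -0.12 without fasted replicate 2, -0.49 without fasted replicate 3, -0.50 without fed replicate 4 and -0.62 without both fasted replicate 3 and fed replicate 4.

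**Figure D2:**
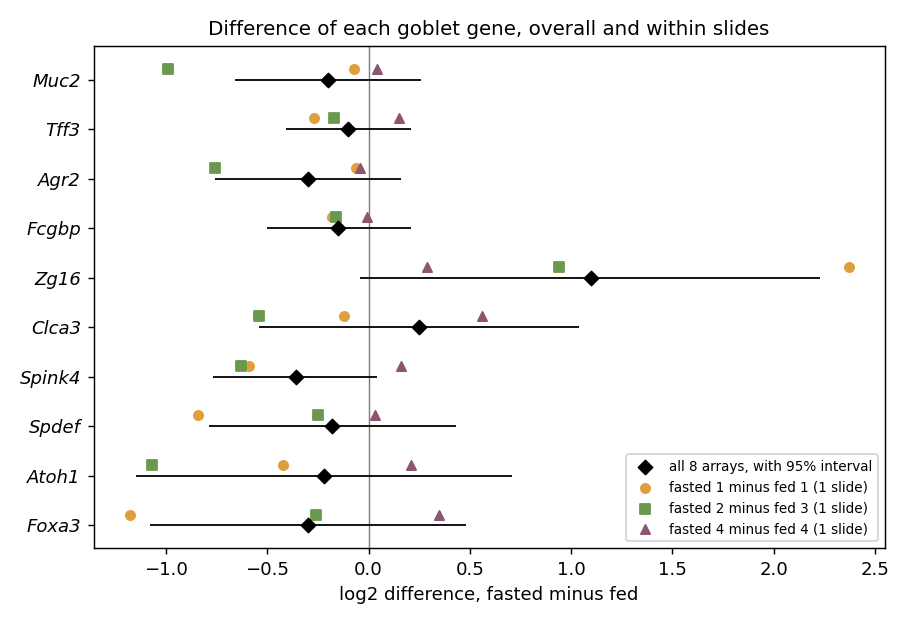
Log2 difference, fasted minus fed, of each goblet cell gene (x axis) with its 95% interval from limma, and the difference within each slide shared by the groups. All 10 intervals contain 0. Zg16 lies farthest right at 1.1 and Spink4 farthest left at -0.36.

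The sign of the set's difference was not the same on every slide. Of 5 slides, 3 held 1 fasted and 1 fed array. On the slide of fasted replicate 1 and fed replicate 1, 9 of the 10 genes were lower in the fasted array, and the median was -0.23 against -0.07 for all genes. On the slide of fasted replicate 2 and fed replicate 3, 9 were lower and the median was -0.40 against -0.04. On the slide of fasted replicate 4 and fed replicate 4, 2 were lower and the median was 0.16 against 0. With the slide as a fixed block, fasted replicate 3 and fed replicate 2, each alone on its slide, added nothing to the difference. That fit averages the same 3 within-slide differences and is not a separate check of them. In it 9 of the 10 were lower, with a median of -0.31, and 0 of them passed.

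**Figure D3:**
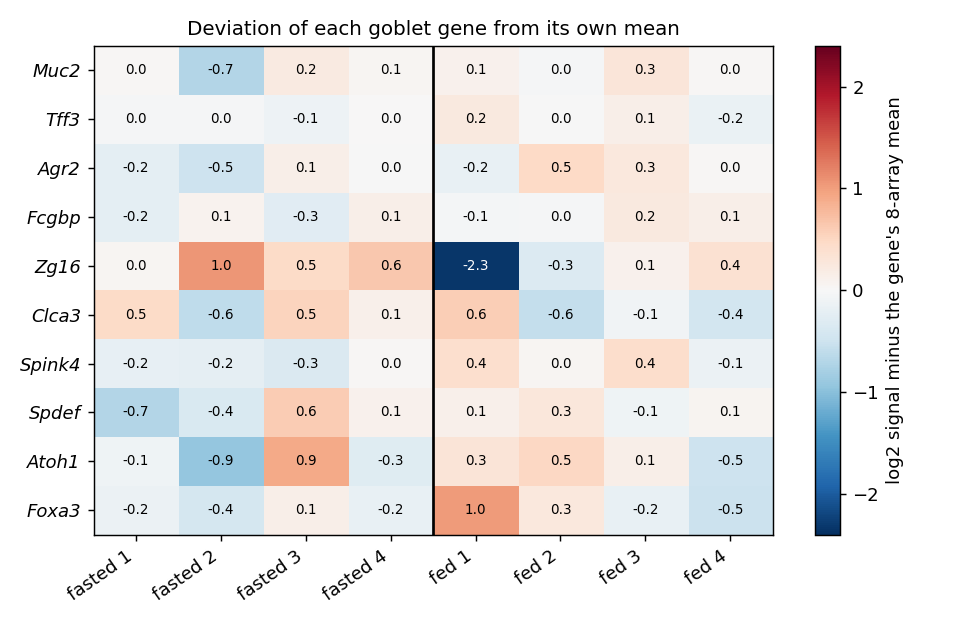
Deviation of each goblet cell gene (rows) from its own mean over the 8 arrays (columns), on the log2 scale, as a colour map with values. Fasted replicate 2 has the lowest median deviation, -0.39, and fed replicate 1 has the lowest Zg16 value.

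The 10 genes did not share a pattern over the arrays. Over the 45 pairs of genes the median Pearson correlation was 0.16 over 8 arrays, and 0.09 after the group means were removed, with 29 pairs above 0. These correlations are descriptions over arrays that share the same scaling. The closest pair was Tff3 and Spink4, small secreted peptides, at 0.90, and it stayed between 0.86 and 0.93 when single arrays were left out. The most opposed pair was Zg16 and Foxa3, at -0.90, which was -0.60 without fed replicate 1. Tff3 and Zg16 were at -0.74 with that array and -0.21 without it.

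Muc2 resembled Atoh1 (0.71), Agr2 (0.65) and Clca3 (0.58) most among the set. Without fasted replicate 2, in which Muc2, Agr2, Atoh1 and Clca3 each had their lowest level, the same correlations were 0.40, 0.07 and 0.40. Its correlation with its mucus partner Fcgbp was -0.13 and with Zg16 -0.37.

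Over all 19312 genes compared, the 5 outside the set with the pattern most like Muc2 were Ang2, Pdlim2, Retnlb, 1700056E22Rik and a probe that the files give no gene name, with correlations of 0.98, 0.961, 0.959, 0.955 and 0.948 over 8 arrays. Ang2 here is the gene the array files name so. 1700056E22Rik and the unnamed probe were dim, with levels of -6.24 to -2.55 and of -5.15 to -2.85. 1700056E22Rik was well above background on 3 of the 4 fasted and 3 of the 4 fed arrays. Retnlb, a cysteine-rich peptide secreted by goblet cells, was at 2.82, -2.37, 4.09 and 2.52 in fasted and 2.52, 0.71, 3.86 and 2.74 in fed crypts. Its lowest array by far was fasted replicate 2, as for Muc2, and its log2 difference was -0.69 (SE 1.05, limma adjusted p = 0.869). Ang2 was at 5.06, 3.30, 5.21 and 4.77 in fasted and 5.11, 4.72, 5.23 and 4.66 in fed crypts, again lowest in fasted replicate 2. Without that array the 5 correlations were 0.83, 0.74, 0.84, 0.66 and 0.52. The 5 genes were picked by their correlation over all 8 arrays, and no other array was left out for them. How much of the likeness rests on fasted replicate 2 was thus not tested.

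**Figure D4:**
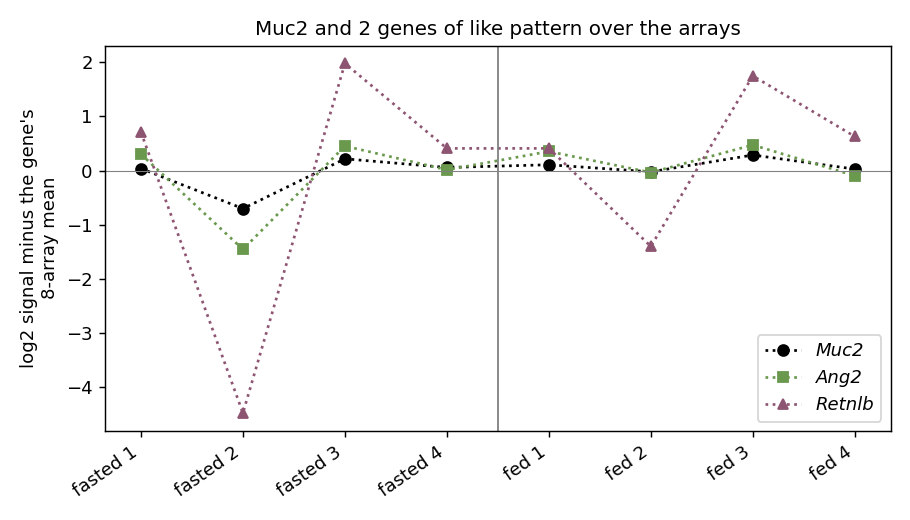
Levels of Muc2, Ang2 and Retnlb on the 8 arrays (x axis), as deviations from each gene's mean (y axis, log2). All 3 lines are lowest at fasted replicate 2.

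An interaction term tested whether fasted and fed crypts differed alike in both labelled sexes. No gene passed limma's adjusted threshold for it (0% of 19445 genes, smallest adjusted p 0.757), and 3.17% had an unadjusted p under 0.05, Spdef among the set being 1 of them. Spdef had a log2 difference of -0.74 in arrays labelled male and of 0.37 in those labelled female. The difference between these (male minus female) was -1.11 (SE 0.39, limma unadjusted p = 0.0229, adjusted p = 0.757). The other transcription factors had the same arrangement of signs: Foxa3 had differences of -0.94 and 0.33, and Atoh1 of -0.93 and 0.49, in arrays labelled male and female. Clca3 shared that arrangement, at -0.08 and 0.59. Of the remaining genes, Zg16 was higher in fasted arrays of both labels, at 1.87 and 0.32. Spink4 had -0.43 and -0.30, Muc2 -0.38 and -0.01, and Agr2 -0.53 and -0.08. Tff3 had -0.14 and -0.05, and Fcgbp -0.04 and -0.26. The labels are those of the samples, and fed replicate 4, whose transcripts go against its label, is 1 of the 4 arrays labelled female.

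Genes that act before, beside or after the 10 were read from lists of the same processes, and none of their members passed the adjusted threshold. For comparison, 3.95% of all genes had an unadjusted limma p under 0.05 with higher levels in fasted crypts and 2.02% with lower levels. By sign, 55.5% of all genes were lower in fasted crypts. The 17 regulators of secretory fate divided into 8 higher and 9 lower in fasted crypts (median -0.02). Cdx2, the intestinal homeobox factor, had a log2 difference of 0.75 (SE 0.25), Gfi1, a repressor downstream of Atoh1, 0.83 (SE 0.35), and Neurog3, the enteroendocrine factor, -0.64 (SE 0.25), all with an unadjusted limma p under the threshold. The fasted and fed values of Cdx2 and Gfi1 did not overlap, as for 2.99% of all genes in that direction. The Notch pathway genes in the list did not reach it, with Hes1 at 0.32 (SE 0.30), Notch1 at -0.24 (SE 0.29) and Dll1 at -0.04 (SE 0.35).

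The 22 enzymes of mucin glycosylation measured among 23 divided into 12 higher and 10 lower (median 0.11). Gcnt4, a branching enzyme of O-glycans, had the smallest p and a log2 difference of 1.68 (SE 0.54), but was well above background on 1 of the 4 fed arrays. C1galt1, which makes the core of most O-glycans, had 0.73 (SE 0.38). The 20 folding and secretory-path genes divided into 13 higher and 7 lower (median 0.07). Creld2, an endoplasmic reticulum stress protein, had 0.85 (SE 0.28), with no overlap between groups, Xbp1, the transcription factor of secretory cells, 0.43 (SE 0.24), and Pdia5, a disulfide isomerase, -0.74 (SE 0.37). The medians of the glycosylation and folding lists changed sign, to -0.10 and -0.09, without fasted replicate 3, and that of the regulators of secretory fate turned to 0.12 without fasted replicate 2.

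The 16 genes of granule release and ion transport divided into 10 higher and 6 lower (median 0.05, and -0.08 without fasted replicate 3). The anion exchangers Slc26a6 and Slc26a3, which supply bicarbonate to the mucus, had log2 differences of 1.16 (SE 0.32) and 1.64 (SE 0.49), with no overlap between groups. Both are also known in enterocytes. Nlrp6, an inflammasome receptor linked to mucus release, had 0.98 (SE 0.28). Snap23, a SNARE of granule fusion, had -0.41 (SE 0.18), and Vamp8, another SNARE, 0.00 (SE 0.21).

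Among 23 other goblet cell markers, 6 were higher and 17 lower in fasted crypts (median -0.14), with no unadjusted p under the threshold. Ang4, an antimicrobial ribonuclease of Paneth and goblet cells, had -0.48 (SE 0.24) and the chemokine Ccl6 -0.35 (SE 0.23), whereas Capn9, a calpain, had 0.68 (SE 0.38). That median was 0.03 without fasted replicate 2 and -0.36 without fasted replicate 3.

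Markers of other cells that the captures could hold are given beside these values. The 11 tested of 12 Paneth cell markers on the array were all lower by sign in the fasted group, against 55.5% of all genes. Their median was -0.44, but -0.15 with quantile normalization and -0.21 in the authors' deposited log2 values. Their summed linear level was 526 to 673 on fasted and 699 to 956 on fed arrays. All 24 enterocyte markers were higher, against 44.5% of all genes, with a median of 1.17. Of these markers, 18 had an unadjusted limma p under the threshold, against 3.95% of all genes with higher levels in fasted crypts. The summed level of the enterocyte markers was 140 to 264 against 60 to 113. Both lists were chosen with earlier results of these data known. The summed level of the 10 goblet cell genes was 288 to 330 in fasted and 306 to 364 in fed crypts, which overlapped. A summed level rests mostly on the brightest probes of a list, which for the goblet cell genes were those of Tff3, Fcgbp and Spink4. Summed levels also overlapped for 12 enteroendocrine markers (21.1 to 47 against 18.9 to 42.3), 11 tuft cell markers (19.1 to 47.6 against 24.7 to 69.8), 13 stem cell markers (34.6 to 52.4 against 37.7 to 71.5) and 16 stromal and leukocyte markers (206 to 265 against 246 to 399). By sign, 7 of the 13 stem cell markers were higher and 6 lower in fasted crypts. Olfm4 alone among them had groups that did not overlap, with a log2 difference of -1.11 (SE 0.24, limma adjusted p = 0.787). Of all genes, 1.98% had groups that did not overlap with the fasted group below. The part of these cell types in the goblet cell values was not tested.

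**Figure D5:**
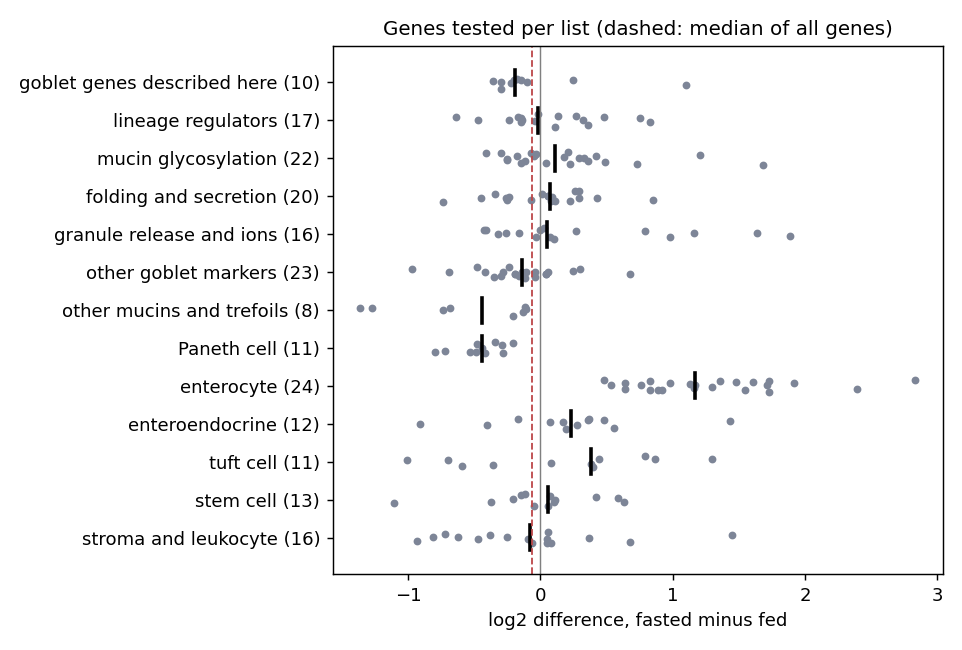
Log2 difference, fasted minus fed, of each tested gene in the goblet cell set and in the other lists (points), with the median of each list as a short line and that of all genes, -0.06, as a dashed line. The goblet cell genes centre on -0.19, the enterocyte markers on 1.17 and the Paneth cell markers on -0.44.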

How the data were processed

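Cy5-labelled material from captured jejunal lower crypts of 8 mice was read on single-colour Agilent mouse arrays, per the labels' protocols. The deposited files hold spot intensity in linear units, made by the authors in Agilent Feature Extraction (version 11.5.1.1 in the submitters' processing notes), with other columns that flag spots well above background or outlying. The authors' deposited table holds log2 values of the same probes, whose scaling and centring stay unknown; it served as an alternative.

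Control and outlier spots were left out, spots of a probe averaged, and from the log2 of the processed signal the 75th percentile of its array was subtracted. Probes had to exceed background clearly on 4 or more of the 8 arrays, and the brightest stood for a gene. Of 39429 probes, 27655 took a symbol by accession from RefSeq (GRCm38.p6). The others took the RefSeq symbol of matched probes with the same file name, or kept that name. All genes were tested with limma 3.58.1 in R 4.3.3 (lmFit, eBayes with a mean trend), on feeding group plus labelled sex, adjusted by Benjamini-Hochberg at 0.05. The procedure was tested on simulated data with independent arrays, which lacked the correlation within slides.

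The members and the 12 other lists were chosen with earlier results of these data known. Named genes were all members, up to 3 of each list with the smallest unadjusted p, and the 5 genes most correlated with Muc2. Hes1, Notch1, Dll1, Snap23 and Vamp8 were added after their values were seen. Alternatives were other scalings, background correction, filters, probe rules, blocks, weights, and leaving out arrays.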

Additional observations from a re-analysis of the deposited data

Results flagged for a closer look

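By the order of their arrays, Spdef and Foxa3 differed between feeding states in opposite directions in arrays labelled male and female. The share of all genes with such an order was not counted. In the limma interaction 3.17% of all genes had an unadjusted p under 0.05, and none passed the adjusted threshold. In both genes, each fasted array labelled male was below each fed array labelled male. In arrays labelled female each fasted array was above each fed array for Spdef. For Foxa3, fasted replicate 4 and fed replicate 3 were both at -0.78 and the order of these 2 rests on digits beyond those given. For Spdef the difference of fasted minus fed in arrays labelled female exceeded that in arrays labelled male by 1.11 on the log2 scale (limma interaction, unadjusted p = 0.0229, adjusted p = 0.757). For Foxa3 it was 1.27 (limma interaction, unadjusted p = 0.055, adjusted p = 0.757). Each cell of this comparison holds 2 arrays, and 1 of those labelled fed and female carried transcripts that go against its label. The size for Spdef ran from -1.35 to -0.86 (male minus female) when single arrays were left out, and its unadjusted limma p was 0.0903 without fasted replicate 1, 0.0628 without fed replicate 2 and 0.0786 without fed replicate 3.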

How the results depend on the processing

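No gene, and so none of the 10, passed the adjusted threshold under any of 24 settings, while 452 to 3073 genes had an unadjusted limma p under 0.05. Signs turned for Muc2 (0.02), Tff3 (0.20) and Fcgbp (0.16) with quantile normalization. In the authors' deposited log2 values they turned for Tff3 (0.21) and Fcgbp (0.10). The sign of Fcgbp also turned with the mean of its probes (0.43) or its dimmer probe alone (1.01). That of Clca3 turned with the slide as a fixed block (-0.03), a fit that rests on the slides with both groups. Leaving out single arrays moved Atoh1 between -0.60 and 0.09. The set's median within slides was -0.23, -0.40 and 0.16. Leaving out single arrays, 0 to 2201 genes passed the interaction test, none of them among the 10. The most were found without fasted replicate 4, and 1 gene passed without fed replicate 2. The cause was not tested. Same-numbered fasted and fed arrays had deviation correlations of 0.372, -0.47, -0.447 and 0.607 for replicates 1 to 4. The arrays of replicate 1 shared a slide, as did those of replicate 4, so number and slide cannot be told apart there. Whether the numbers pair the mice is not settled by these values. Arrays of a shared slide had 0.372, 0.536 and 0.607, and the slide as a random block had a consensus correlation of 0.701. With the slide as a fixed or random block the smallest limma adjusted p over all genes was 0.114 or 0.145, and 0 genes passed. With the replicate number as a block, the differences of the 10 could not change, since each number holds 1 fasted and 1 fed array. Thus 8 of the 10 were lower and the median was -0.19, as in the main fit. With that block 0 genes passed and 1108 had an unadjusted limma p under 0.05. The filter on dim probes removed none of the 10.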

Other observations

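Other mucins and trefoil peptides, several of them membrane-bound or of gastric type, were all lower in fasted crypts by sign, against 55.5% of all genes. Of 14 names listed, 10 were found on the array and 8 tested, with log2 differences of -1.36 to -0.11, a median of -0.44 and no unadjusted limma p under 0.05. Muc20, a membrane mucin, was at -1.09, 0.07, -2.85 and 0.32 in fasted and 0.23, -0.06, 0.54 and 0.81 in fed crypts, so fasted replicates 1 and 3 were low and the groups overlapped. Muc1, a membrane mucin, had -0.74 (SE 0.38) and Tff2, the trefoil peptide of mucous neck and Brunner's gland cells, -0.68 (SE 0.59). Both were dim and well above background on 3 of the 4 fasted arrays, with their lowest levels, -3.07 and -4.18, in fasted replicate 3. Tff1 stayed under the background limit on all 8 arrays. The median of the 8 was -0.11 without fasted replicate 3.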
